A study of Mus musculus with 8 samples.

Results

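The interleukin 1 and 36 family was followed through embryonic mouse skin that lacked the retinoic acid-degrading enzyme Cyp26b1 in whole or in part. It was taken as 9 genes chosen by name, Il1a, Il1b, Il1rn, Il1f5, Il1f6, Il1f8, Il1f9, Il18 and Il33, out of 21882 gene symbols in each of 3 tables. They have 14 listed RefSeq transcripts, whose values were summed per symbol. The symbols are older names: Il1f6, Il1f8 and Il1f9 encode the agonists interleukin 36 alpha, beta and gamma, and Il1f5 encodes the interleukin 36 receptor antagonist. RNA came from the skin of C57BL/6 embryos. Unseparated skin of the genotype Cyp26b1-/- was set against wild-type skin on embryonic day 16.5 (E16.5), with 2 libraries per group that the deposited table pools. On embryonic day 18.5 (E18.5), 1 library of the genotype En1cre;Cyp26b1f/- was compared with 1 control library of the genotype Cyp26b1f/+, in dermis and in epidermis. Cre under En1 control acts in the Engrailed 1 lineage, to which part of the trunk dermis belongs, and by its label the E18.5 mutant also carries a null allele in every other cell where its control has an intact one. The values are FPKM (fragments per unit of transcript length and of library size).

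Cytokines of this family are alarm signals of surface epithelia. Interleukin 1 alpha and the interleukin 36 agonists are made by keratinocytes, bind receptors that share the chain Il1rap, and signal through Myd88 to NF-kB. Each branch has a natural antagonist that occupies the receptor without signalling, Il1rn for interleukin 1 and Il1f5 for interleukin 36. Interleukins 1 beta and 18 become active after cleavage by caspase-1, and interleukin 33 is a nuclear alarmin read by the receptor Il1rl1.

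Some features of the whole series bear on these values. Library depth is unknown, since FPKM hides it, and no spread between libraries can be computed, as each column holds 1 library or 1 pool. The labels do not say whether the E16.5 libraries came from separate animals. At E18.5 they number the dermis libraries 1 (control) and 7 (mutant) and the epidermis libraries 6 (control) and 9 (mutant). Tissue therefore cannot be told apart from sample. Summed over its transcripts, Cyp26b1 itself went from 34.95 to 58.2 FPKM in E16.5 skin, from 54.2 to 102 FPKM in dermis and from 4.97 to 13.7 FPKM in epidermis, so the summed level does not show the loss, and genotypes were taken from the labels alone; which part of the gene is deleted is not given in the sources used here. Lens markers, which are foreign to skin, summed over 7 genes to 6.45 FPKM in wild-type and 1825 FPKM in labelled-null skin. The control library labelled dermis held more basal keratinocyte RNA than the control library labelled epidermis: 8 basal markers summed to 12486 and 5754 FPKM. In the mutant libraries the same 8 summed to 3828 FPKM in dermis and 1877 FPKM in epidermis.

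The members fall into 1 gene cluster and 4 genes elsewhere. Il1f8, Il1f9, Il1f6, Il1f5 and Il1rn lie in this order on the plus strand of chromosome 2, with the related gene Il1f10 between Il1f5 and Il1rn, from 24008692 to 24207011 (mm9), a span of 198 kb. Il1a (129125346 to 129135708) and Il1b (129190316 to 129201469) lie on the minus strand of the same chromosome, 105 Mb away. Il18 is on chromosome 9 (50373473 to 50389942) and Il33 on chromosome 19 (29999604 to 30035205), both on the plus strand. In GENCODE, the noncoding genes Gm14023 and Gm14047 overlap Il1a and Il1b on the opposite strand, and with no statement on strand in the sources used here, reads of each pair cannot be told apart.

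The 250 bases before the annotated start are shown for the 3 members with a called fall whose RefSeq window abuts the locus start in the files, and for Il33, which was called the other way. Windows from RefSeq (GRCm38.p6) were matched exactly to the mm9 genome and lie at chr2:24008442-24008691 (plus strand), chr2:24041746-24041995 (plus), chr2:129135709-129135958 (minus) and chr19:29999353-29999602 (plus, the first of 2 listed starts). Each is written 5′ to 3′ along the gene's strand, and capitals mark matches to the motifs named below.
Il1f8: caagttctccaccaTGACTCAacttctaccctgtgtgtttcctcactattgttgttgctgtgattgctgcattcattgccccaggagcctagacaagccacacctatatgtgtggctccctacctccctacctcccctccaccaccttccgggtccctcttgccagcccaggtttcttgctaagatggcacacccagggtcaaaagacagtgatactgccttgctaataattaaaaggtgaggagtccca
Il1f9: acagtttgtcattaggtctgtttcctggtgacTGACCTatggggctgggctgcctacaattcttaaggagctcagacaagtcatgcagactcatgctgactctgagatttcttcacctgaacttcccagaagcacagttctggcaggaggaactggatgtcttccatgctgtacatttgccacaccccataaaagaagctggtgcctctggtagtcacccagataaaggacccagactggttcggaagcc
Il1a: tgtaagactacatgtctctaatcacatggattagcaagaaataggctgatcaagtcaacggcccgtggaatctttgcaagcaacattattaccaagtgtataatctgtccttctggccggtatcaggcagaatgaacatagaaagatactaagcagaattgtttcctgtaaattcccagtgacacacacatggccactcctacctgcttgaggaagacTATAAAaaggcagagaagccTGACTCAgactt
Il33: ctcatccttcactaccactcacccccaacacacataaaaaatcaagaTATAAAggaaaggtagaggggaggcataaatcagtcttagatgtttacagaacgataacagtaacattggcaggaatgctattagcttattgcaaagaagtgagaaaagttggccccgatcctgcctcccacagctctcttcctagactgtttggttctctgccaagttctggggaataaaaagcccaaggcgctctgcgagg
Motifs were searched on both strands: AP-1 (TGANTCA), NF-kB (GGG and TTTCC with 2 bases between), the retinoic acid half-site (AGGTCA), a direct repeat of that half-site with 5 bases between (each copy is also a half-site match) and the TATA box (TATAAA). Positions count back from the annotated start. Il1f8 held an AP-1 match at -236, and Il1a held one at -12 and a TATA box at -32. Il1f9 held a half-site on the reverse strand at -218, and Il33 held a TATA match at -203. The other listed start of Il33, whose window is not shown, held a TATA match at -29. The starts were not matched to the Il33 transcript that rose. Among 32536 distinct promoter windows of the same length, 6.73% held the AP-1 letters, 1.4% the NF-kB letters, 0.00922% the direct repeat, 14% the half-site and 12.3% the TATA box. The table had windows for 8 of the 9 members, 12 in all. The direct repeat was in none of these 12 windows, and the NF-kB letters were in 1, at a downstream start of Il1rn.

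In E16.5 skin, 5 of the 7 tested members fell and 1 rose relative to the median gene. The median is used because most transcripts were higher in the labelled-null columns, by 0.48 on the scale of the deposited log2 folds and by 0.43 on the log2(FPKM + 1) scale. Rose and fell refer to the deposited Cuffdiff statistic recomputed after subtracting that median, with q, the p after Benjamini-Hochberg adjustment over 19608 transcripts, under 0.05. Its SE is that of Cuffdiff's model for 2 pooled libraries per group, so q measures no spread between animals. By this rule 10.2% of 16303 tested genes fell and 8.16% rose. The calls of the authors' deposited table at q under 0.05, with no subtraction, were 4 members lower and 2 higher, against 3.46% and 54.6% of all genes. Of the other 2 members, Il1b was below the reads needed for a test and Il1f5 had a failed estimate. Levels in all 6 columns are in the plot of log2(FPKM + 1) by gene.

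**Figure D1:**
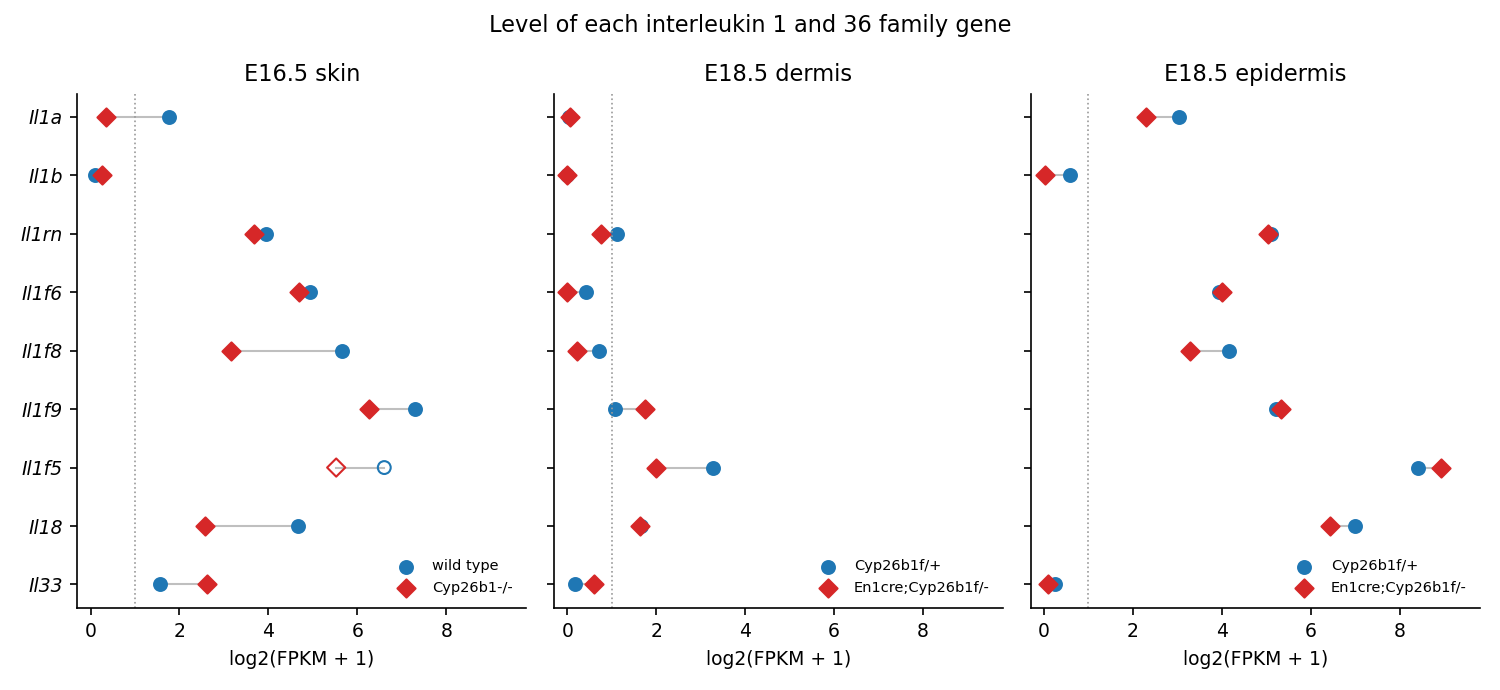
Level of each family gene on the log2(FPKM + 1) axis, in E16.5 skin, E18.5 dermis and E18.5 epidermis. Circles are control and diamonds are mutant columns, open symbols mark rows with a failed estimate (Il1f5 at E16.5), and the dotted line is 1 FPKM. Il1f8, Il18 and Il1a are farthest apart at E16.5, and in dermis 5 of the 9 genes stay under 1 FPKM in both columns.

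Of the interleukin 1 agonists, Il1a fell to about the limit of measurement. Il1a, which encodes the form that is active without cleavage, was at 2.41 FPKM in wild-type and 0.28 FPKM in labelled-null skin at E16.5, an 8.61-fold lower level. With the median subtracted, its deposited log2 fold was -3.60 (SE 0.44, recomputed q = 3e-14). Its difference on the log2(FPKM + 1) scale was -1.84, smaller because the pseudocount weighs on a gene this low, and -3.20 with a pseudocount of 0.1. Il1b, the caspase-1 substrate typical of myeloid cells, was at 0.07 and 0.2 FPKM, too low in both columns for a comparison.

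The interleukin 1 receptor antagonist Il1rn was split by transcript. The main transcript NM_031167 went from 14.5 to 11.2 FPKM, a median-subtracted log2 fold of -0.85 (SE 0.17, recomputed q = 1.5e-05), and was called lower. A minor transcript, NM_001159562, was listed at 0 in wild-type and at 0.37 FPKM in labelled-null skin and kept the authors' call of higher, so the gene as a whole got no call. With transcripts under 1 FPKM left out, an alternative chosen after seeing the data, Il1rn was called lower. In the authors' deposited table the main transcript had q = 0.0527, so by those calls the minor transcript alone put the gene among the higher ones.

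The 3 interleukin 36 agonists fell by unequal amounts. Il1f8 (interleukin 36 beta), whose AP-1-bearing window is shown above, went from 49.2 to 7.86 FPKM, 6.26-fold lower. With the median subtracted, its deposited log2 fold was -3.12 (SE 0.25, recomputed q = 9e-33). Il1f9 (interleukin 36 gamma), the most abundant member in this tissue, went from 157 to 75.6 FPKM, with -1.53 (SE 0.14) on the same scale. Il1f6 (interleukin 36 alpha) went from 29.6 to 24.6 FPKM, with -0.74 (SE 0.19, recomputed q = 0.0016). The call of Il1f6 rests on the subtraction of the median, since the authors' deposited table gives q = 0.236. The level of Il1f9 was 3.18 times that of Il1f8 in wild-type skin and 9.62 times in labelled-null skin. Il1f5, the antagonist of the 3, is listed at 96.3 and 45.0 FPKM, but each of its 3 transcripts carries a failed status, so no fold is given.

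Il18 and Il33 moved in opposite directions. Il18, an interferon gamma-inducing cytokine that keratinocytes store as a precursor, went from 24.5 to 4.95 FPKM, 4.94-fold lower, with a median-subtracted log2 fold of -2.78 (SE 0.28, recomputed q = 5.7e-21). Il33 went from 1.95 to 5.11 FPKM. Its main transcript NM_133775 rose from 1.77 to 4.89 FPKM, with 0.99 (SE 0.27, recomputed q = 0.0032), while NM_001164724 was at 0.18 and 0.22 FPKM without a call. Both calls were also made in the authors' deposited table.

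**Figure D2:**
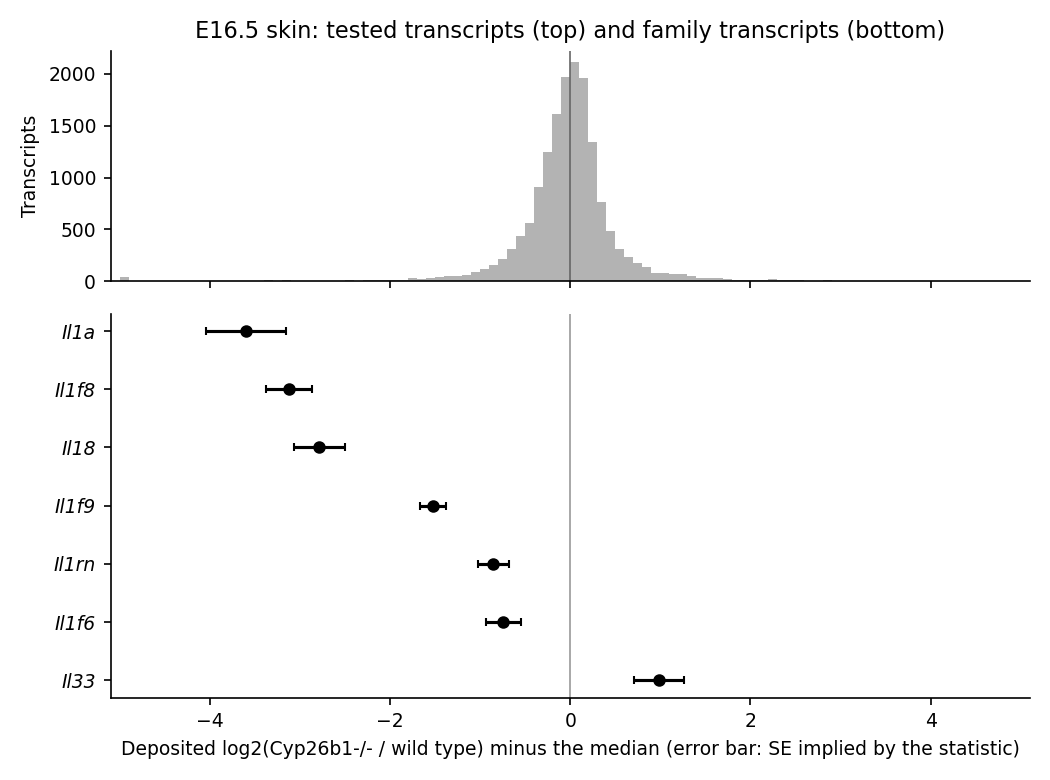
Top, histogram of the deposited log2 fold minus the median for tested transcripts of at least 1 FPKM in E16.5 skin, with values beyond 5 on either side put in the end bins. Bottom, the same value for the family's transcripts of at least 1 FPKM, with the SE implied by the deposited statistic, from -3.60 for Il1a to 0.99 for Il33.

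The order of levels changed with these differences. In wild-type skin the order from high to low was Il1f9, Il1f5 (failed estimate), Il1f8, Il1f6, Il18, Il1rn, Il1a, Il33 and Il1b. In labelled-null skin Il1f8 dropped from the third to the fifth place and Il18 from the fifth to the seventh, below Il33. With Il1f5 left out, the family summed to 279 FPKM in wild-type and 130.4 FPKM in labelled-null skin, and Il1f9 made up 56.2% and 58% of it. Since no spread between libraries can be computed, neighbours in this order cannot be separated by replicate error.

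Along the chromosome 2 cluster, the fall at E16.5 was deepest at the Il1f8 end. On the log2(FPKM + 1) scale relative to the median gene, the differences were -2.93 for Il1f8, -1.47 for Il1f9 at 33.3 kb, -0.69 for Il1f6 at 62.2 kb, -0.25 for Il1f10 at 138 kb and -0.71 for Il1rn at 184 kb. Il1f10, a related cytokine gene outside the chosen 9, was at 6.61 and 7.58 FPKM, without a call. In the E18.5 epidermis the same genes ran from -0.70 at Il1f8 through 0.29 at Il1f9, 0.25 at Il1f6 and 0.70 at Il1f5 to 1.19 at Il1f10 and 0.11 at Il1rn. Il1f8 was the lowest of the cluster in both of these tables, with Il1f5 lacking a value at E16.5.

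**Figure D3:**
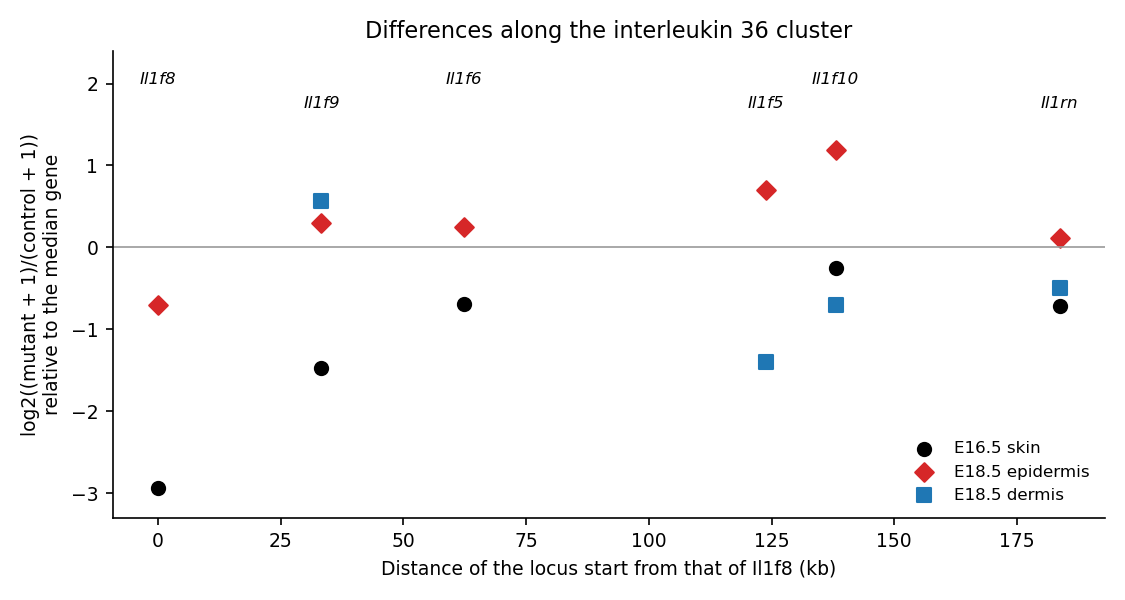
Difference of each cluster gene on the log2((mutant + 1)/(control + 1)) axis, relative to the median gene, against the distance of its locus start from that of Il1f8 in kb. Il1f5 has no E16.5 point because its estimate failed, and dermis points are shown for genes of at least 1 FPKM; Il1f8 is at -2.93 in E16.5 skin and -0.70 in E18.5 epidermis.

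The tissue libraries at E18.5 place most of the family in the epidermis. In control epidermis Il1f5 was highest at 339 FPKM, followed by Il18 at 126, Il1f9 at 35.95, Il1rn at 33.2, Il1f8 at 16.8, Il1f6 at 14.4 and Il1a at 7.17 FPKM, with Il1b at 0.49 and Il33 at 0.18 FPKM. In control dermis Il1f5 was at 8.67, Il18 at 2.16, Il1rn at 1.18 and Il1f9 at 1.09 FPKM, and the other 5 members were under 1 FPKM. The levels of these 4 were 28.2 times (Il1rn) to 58.2 times (Il18) higher in the epidermis table. The tables were normalised separately, and each tissue has 1 control library with a different sample number, so this is a description. Basal keratinocyte markers were abundant in the dermis library, as given above, and their part in these low dermal values was not tested. Il33 was under 1 FPKM in all 4 E18.5 columns.

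In E18.5 epidermis, 0 of the 7 members with at least 1 FPKM were past a 2-fold difference in either direction, where 3.49% of 11362 genes were higher and 4.86% lower by that rule, relative to the median gene (a log2 shift of -0.18). With 1 library per group there is no test. Il1f8 went from 16.8 to 8.69 FPKM (log2 difference -0.70 relative to the median), Il1a from 7.17 to 3.93 FPKM (-0.55) and Il18 from 126 to 85.4 FPKM (-0.37). These 3 genes, the lowest of the 7 in the epidermis, were also the 3 lowest of 7 at E16.5, in libraries that the comparisons do not share. The sets of 7 differ, since Il1f5 had a failed estimate at E16.5 and Il33 was below the filter in epidermis. Il1f9 went from 35.95 to 39.1 FPKM (0.29), Il1f6 from 14.4 to 15.1 FPKM (0.25) and Il1rn from 33.2 to 31.7 FPKM (0.11). Il1b went from 0.49 to 0.02 FPKM, below the filter. In the same libraries 12 macrophage and Langerhans cell markers summed to 391 and 75.7 FPKM, led by the antigen presentation genes Cd74 (172 and 0.59 FPKM) and H2-Ab1 (51.5 and 0.07 FPKM). Cd207, which defines Langerhans cells, was at 0.39 FPKM in the control and listed at 0 in the mutant, and their part in the Il1b values was not tested.

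Il1f5 had the highest difference among members in the epidermis. It went from 339 to 488 FPKM, a log2 difference of 0.70 relative to the median. The 3 transcripts were unequal: NM_001146088 went from 279 to 310 FPKM, NM_001146087 from 35.1 to 106 FPKM and NM_019451 from 24.75 to 71.8 FPKM. How reads were shared among these overlapping transcripts is an estimate, so single transcripts are uncertain. In the authors' deposited table NM_001146087 is marked significant, from a test with 1 library per group. The level of Il1f5 was 20.2 times that of Il1f8 in the control and 56.2 times in the mutant. Among the differentiated keratinocyte markers measured without a failed status (10 of 14), the median difference was 0.37 and the summed level was 20742 and 21207 FPKM. The 8 basal markers had a median of -1.23. In bulk RNA, fewer cells of a type and less RNA per cell cannot be told apart.

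In E18.5 dermis, 4 members had at least 1 FPKM. By the same 2-fold rule 1 was lower and 0 were higher, where 13.9% of 13398 genes were lower and 14% higher. The lower one was Il1f5, from 8.67 to 3.01 FPKM (-1.39 relative to the median gene, a shift of 0.12). Il1rn went from 1.18 to 0.69 FPKM (-0.49), Il18 from 2.16 to 2.11 FPKM (-0.15) and Il1f9 from 1.09 to 2.36 FPKM (0.56). Differentiated keratinocyte markers were lower in the same library, with a median of -1.61 over 14 genes, summed levels of 4590 and 1521 FPKM and 11 of 14 past 2-fold, and their part in the Il1f5 value was not tested. Of 7 immediate-early and stress genes with at least 1 FPKM in dermis, 5 were past 2-fold lower. Their median was -1.43, with Atf3 the other way at 0.91. What this difference between the libraries adds to the dermis values was not tested. The cluster neighbour Il1f10 went from 1.25 to 0.5 FPKM (-0.71). Below the filter, Il33 went from 0.12 to 0.52 FPKM, Il1f8 from 0.63 to 0.16 FPKM and Il1f6 from 0.34 FPKM to a listed 0. Il1a was at 0.03 and 0.05 FPKM, and Il1b was listed at 0 in both.

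Receptors were measured as 11 genes, of which 10 were tested at E16.5. By the recomputed Cuffdiff statistic 1 fell and 0 rose, against 2 and 0 at an unadjusted p under 0.05. The authors' deposited table called 1 lower and 3 higher. Over all tested genes, 10.2% fell and 8.16% rose by the recomputed statistic, and 3.46% were lower and 54.6% higher by the authors' calls. The one that fell was Il1r2, a decoy receptor that binds interleukin 1 without signalling, from 13.0 to 2.71 FPKM (median-subtracted log2 fold -2.74, SE 0.28, recomputed q = 7.7e-21). The signalling receptor Il1r1 went from 12.4 to 15.4 FPKM, so the level of Il1r2 was 1.05 times that of Il1r1 in wild-type and 0.18 times in labelled-null skin. Il1rl2, the interleukin 36 receptor, went from 13.3 to 15.97 FPKM and Il1rl1, the interleukin 33 receptor, from 11.9 to 14.5 FPKM, each without a call. Sigirr, an inhibitory receptor of the family, went from 3.76 to 3.19 FPKM without a call. At E18.5, Sigirr went from 4.06 to 13.2 FPKM in the epidermis (1.67) and Il18bp, which neutralises interleukin 18, from 0.17 to 1.49 FPKM (1.27). In the dermis Il1rl1 went from 1.65 to 4.53 FPKM (0.94) and Il1rl2 from 1.48 to 4.17 FPKM (0.94). In the same dermis libraries 7 mast cell markers, a cell type that carries Il1rl1, summed to 672 and 2231 FPKM (median 0.83 over the 6 with at least 1 FPKM), with the IgE receptor gene Fcer1a listed at 0 in the control and at 0.84 FPKM in the mutant, and the protease gene Cma1 at 130.3 and 1072 FPKM. Macrophage and Langerhans markers had a median of 1.13 (sums of 316 and 452 FPKM) and 6 endothelial markers one of 1.53 (185 and 275.5 FPKM). The part of these cell types in the receptor values was not tested. Il1r2 in the epidermis was at 10.99 and 13.9 FPKM.

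Of 21 signalling genes, 19 were tested at E16.5, and 5 rose and 3 fell. The median difference was -0.01 over the 19 that passed 1 FPKM, where the median over all genes is 0 by construction. Nfkbiz was called lower through NM_001159395 (1.47 to 0.97 FPKM), while NM_001159394 went from 1.93 to 3.98 FPKM without a call. The authors' calls put Nfkbiz among the higher genes. Irak2 was called lower through NM_001113553 (1.86 to 1.23 FPKM), while NM_172161 had no call (4.32 and 5.21 FPKM). Map3k7 and Tnfaip3 were called higher through NM_009316 and NM_001166402, while another transcript of each had no call. By the calls of the authors' deposited table, 14 were higher and 0 lower, against 54.6% and 3.46% of all tested genes. By the recomputed statistic 8.16% of all tested genes rose and 10.2% fell. Nfkbia, the inhibitor of NF-kB that NF-kB itself induces, rose from 36.5 to 77.6 FPKM (0.64 on the log2(FPKM + 1) scale relative to the median). The kinase gene Irak4 rose from 4.64 to 9.32 FPKM (0.44) and the adaptor gene Tab3 from 4.69 to 9.68 FPKM (0.48). Tollip, an adaptor that restrains the pathway, was at 44.4 and 44.0 FPKM and fell relative to the median gene (-0.44). At E18.5, Tab2 (9.14 to 23.4 FPKM) and the deubiquitinase gene Tnfaip3 (1.03 to 3.49 FPKM) were the farthest from the median in dermis, at 1.15 and 1.02. In epidermis they were Irak2, from 14.15 to 23.6 FPKM (0.88), and Tab3, from 2.02 to 0.48 FPKM (-0.85).

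Of 20 processing and inflammasome genes, 17 were tested at E16.5, and 1 rose and 3 fell. The one that rose was Casp1, which encodes the protease that matures interleukins 1 beta and 18, from 4.65 to 20.75 FPKM (median-subtracted log2 fold 1.68, SE 0.22, recomputed q = 1.9e-12). Il18, one of its substrates, fell in the same columns. Nlrp10 fell from 20.3 to 17.9 FPKM (-0.60), a call that the authors' deposited table does not make (q = 0.287). Capn1 was called lower through NM_001110504 (35.15 to 27.97 FPKM), while NM_007600 went from 34.6 to 55.1 FPKM without a call. Ctsg fell at a level under 1 FPKM, from 0.46 to 0.17 FPKM. Gsdmd, the pore protein through which mature interleukin 1 beta leaves cells, was at 12.03 and 12.3 FPKM and the DNA sensor Aim2 at 1.91 and 2.17 FPKM, both without a call. For these genes, 5 were higher and 0 lower by the calls of the authors' deposited table, against 54.6% and 3.46% of all tested genes. By the recomputed statistic 8.16% of all tested genes rose and 10.2% fell. At E18.5 the protease gene Ctss went from 2.85 to 10.95 FPKM in dermis (1.51) and from 17.4 to 5.47 FPKM in epidermis (-1.33). Gsdma went from 11.9 to 2.32 FPKM in dermis (-2.08), and Gsdmd from 2.64 to 0.73 FPKM in epidermis (-0.89). The medians of macrophage and Langerhans markers had the same signs as Ctss, 1.13 in dermis and -0.96 in epidermis. Of 11 such markers in dermis, 3 were below the median gene: Cd74 (-0.55), H2-Ab1 (-0.33) and C1qa (-0.70). In epidermis 11 of 11 were below it. Medians of fibroblast (0.95 and -1.84), mast cell (0.83 and -0.95) and endothelial markers (1.53 and -0.58, from 1 gene in epidermis) had those signs as well. The part of these cells was not tested.

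Among 20 genes that these cytokines are known to induce, 16 were tested at E16.5, and 2 rose and 4 fell. Saa1, a serum amyloid, fell from 21.4 to 0.52 FPKM (-4.31), the defensins Defb4 from 7.2 to 1.39 FPKM (-2.21) and Defb14 from 18.9 to 5.4 FPKM (-2.06), and the prostaglandin synthase gene Ptgs2 from 2.87 to 1.15 FPKM (-1.28). The 2 that rose were low, the chemokine gene Ccl20 from 0.34 to 1.53 FPKM and the cytokine gene Il23a from 0.24 to 0.96 FPKM, named after their values were seen. The authors' deposited table called 4 lower and 3 higher, against 3.46% and 54.6% of all tested genes. By the recomputed statistic 10.2% of all tested genes fell and 8.16% rose. In the E18.5 epidermis Defb14 went from 9.48 to 1.53 FPKM (-1.87) and the adhesion gene Icam1 from 3.52 to 1.32 FPKM (-0.78), and in dermis Tnf went from 0.29 to 3.0 FPKM (1.51) and Ccl2 from 1.69 to 5.2 FPKM (1.08). Most other targets were under 1 FPKM at E18.5.

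Markers of some cell types moved beside the family at E16.5. Over all tested genes, 10.2% fell and 8.16% rose by the recomputed Cuffdiff statistic, and 3.46% were lower and 54.6% higher by the authors' calls. Of 12 tested differentiated keratinocyte markers, 7 fell and 0 rose by the recomputed Cuffdiff statistic (8 and 0 at an unadjusted p under 0.05; 6 lower and 1 higher in the authors' deposited table), with a median of -0.68 and a range from -4.63 (Klk7) to 0.79 (Tgm1). Their summed level was 11897 and 13368 FPKM, with Krt1 and Krt10 left out for a failed status. Of 7 tested basal markers, 2 fell and 0 rose (6 and 0 unadjusted; 2 lower and 1 higher in the authors' deposited table). Of 11 tested macrophage and Langerhans markers, 0 rose and 0 fell (1 and 1 unadjusted; 7 higher and 0 lower in the authors' deposited table), and their sum was 231 and 306 FPKM. Of 5 tested neutrophil markers, 3 fell (Camp, Ngp and Mpo) and 0 rose, with a median of -0.74 over the 4 with at least 1 FPKM and sums of 9.2 and 5.63 FPKM. The authors' deposited table called 2 of them lower (Ngp and Mpo) and 0 higher. Neutrophils also carry Il1r2, which fell in the same columns. In the E18.5 controls Il1r2 was at 10.99 FPKM in epidermis and 0.53 FPKM in dermis. The 5 neutrophil markers summed to 1.58 FPKM in that epidermis and 12.8 FPKM in that dermis, most of the latter from Camp (12.05 FPKM). Csf3r went the other way, at 1.32 FPKM in epidermis and 0.5 FPKM in dermis. Mpo, Ngp and Ltf were at 0.12 FPKM or less in both, so the order of the sums rests on Camp. Of 7 tested mast cell markers, 3 fell (Mcpt4, Cma1 and Kit) and 1 rose (Fcer1a, from 0.04 to 0.98 FPKM). Their median was -0.48 over the 5 with at least 1 FPKM, with sums of 1116 and 1147 FPKM. The authors' deposited table called 2 of them higher (Tpsb2 and Fcer1a) and 1 lower (Mcpt4). Of 6 tested endothelial markers, 0 rose and 0 fell (1 and 1 unadjusted; 4 higher and 0 lower in the authors' deposited table). The lens markers rose, 7 of 7. The part of these cell types in the values of the family and its receptors was not tested.

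**Figure D4:**
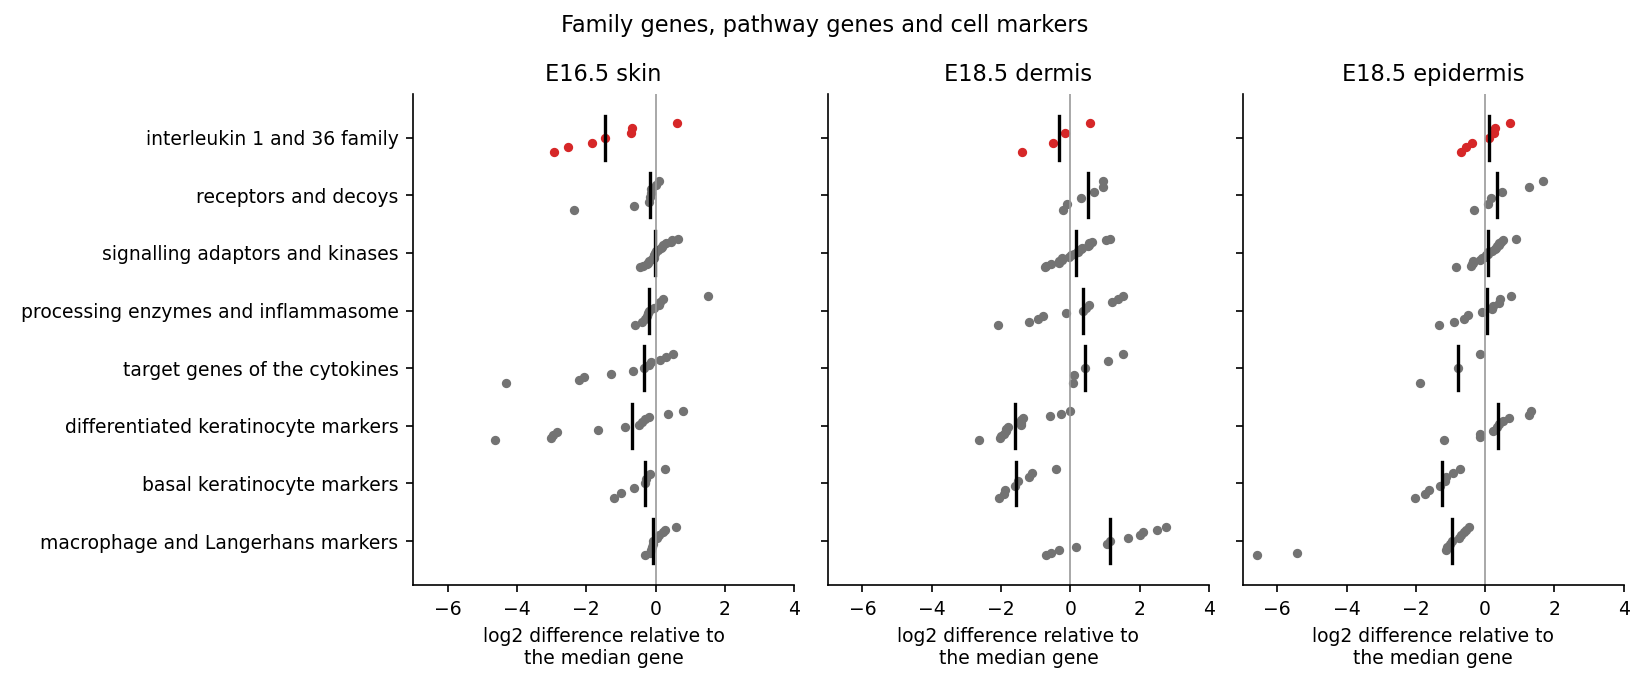
Each point is 1 gene of at least 1 FPKM, on the axis of the log2 difference relative to the median gene, for the family (red), 4 pathway lists and 3 marker lists in each table, and vertical bars are medians. The family's median is -1.47 in E16.5 skin, -0.32 in dermis and 0.11 in epidermis, and differentiated keratinocyte markers are at -0.68, -1.61 and 0.37.

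The genes whose levels most resembled those of Il1f8, the called member with the largest log2(FPKM + 1) difference at E16.5, were 2 protease inhibitors and a defensin. Likeness was the Euclidean distance over the 6 log2(FPKM + 1) levels after each gene's own mean was removed, among 14678 other genes. The 3 closest were Serpinb3b (distance 1.25), Defb14 (1.41) and Serpinb6c (1.55). Serpinb3b, a clade B protease inhibitor gene with close paralogs that may share reads, went from 67.3 to 24.05 FPKM in E16.5 skin and from 45.0 to 26.1 FPKM in epidermis, and was at 1.1 and 0.65 FPKM in dermis. Serpinb6c went from 14.4 to 7.43 FPKM in E16.5 skin and from 6.64 to 6.45 FPKM in epidermis.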

How the data were processed

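Skin RNA was measured in 8 libraries, and 3 deposited tables were used, each with 1 row per RefSeq transcript (27641 rows). Per the submitters' processing notes, the tools were Cuffdiff 1.3.0, Cufflinks, TopHat 1.3.2 and Bowtie 0.12.7.0, on mm9, with settings not stated. The FPKM values were deposited by the authors to 2 decimals; per the file headers, the E16.5 columns pool 2 libraries and the E18.5 columns name 1 library each. The log2 folds, the test statistic (a score), the p-values and the q-values were also deposited by the authors.

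FPKM were summed per symbol. Differences are log2((mutant + 1)/(control + 1)) minus the median over genes of at least 1 FPKM in either group, leaving out genes whose status marks an estimate that failed or data outside the tool's limits (465 at E16.5, 188 in dermis, 194 in epidermis). No count test was possible. For E16.5 the SE came from dividing each deposited log2 fold by its statistic, which is Cuffdiff's model SE and not a spread between animals. The statistic was recomputed after subtracting the median fold, with a two-sided normal p and Benjamini-Hochberg adjustment. A gene's call needed 1 or more called transcripts, all in 1 direction. Transcripts listed at 0 in 1 group kept the authors' call. For E18.5, with 1 library per group, genes past 2-fold were counted.

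The members, lists and tests were chosen with earlier results of these data known. Of the lists, 2 markers (Flg and Ly6g) were not analysed here. Beyond the 9 members, up to 4 genes per pathway list at E16.5 and 2 per E18.5 tissue with the largest difference were named, with the 3 genes most like Il1f8 and the cluster neighbour Il1f10; list members named beyond these were chosen after their values were seen. The procedure was tested on simulated data. Python 3.11.15, numpy, pandas and scipy were used.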

Additional observations from a re-analysis of the deposited data

Results flagged for a closer look

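At E18.5, 6 genes named in the report were flagged for differing in opposite directions in dermis and epidermis under the same genotype contrast. Their signs were opposite with and without subtraction of the median. The values are log2 differences relative to the median gene, and the difference between tissues was not tested, since each group is 1 library. The libraries of the tissues carry different sample numbers, so tissue cannot be told apart from sample. The flagged genes are not all such genes. The share of all genes with opposite signs is not given here, so the count of 6 is not a result about the family. Il1r1 was at 0.70 in dermis and -0.33 in epidermis, and Cma1 at 2.91 and -1.61. Il1f5 was at -1.39 in dermis and 0.70 in epidermis, 2.10 apart, and its cluster neighbour Il1f10 at -0.71 and 1.19, 1.90 apart. The keratinocyte gasdermin gene Gsdma was at -2.08 and 0.74, 2.82 apart. The medians of differentiated keratinocyte markers had the same pair of signs, at -1.61 and 0.37. In dermis 14 of 14 were below the median gene, and in epidermis 3 of 10 were, so not all shared the signs. In the other direction, Ctss was at 1.51 and -1.33 (epidermis minus dermis -2.84), Gsdmd at 1.21 and -0.89 (-2.11) and Icam1 at 0.11 and -0.78 (-0.90). The medians of macrophage and Langerhans markers had those signs too, at 1.13 and -0.96. In dermis 3 of 11 were below the median gene (Cd74, H2-Ab1 and C1qa), and in epidermis 11 of 11 were. Medians of fibroblast (0.95 and -1.84), mast cell (0.83 and -0.95) and endothelial markers (1.53 and -0.58, from 1 gene in epidermis) had those signs as well. Those of neutrophil markers did not, at -0.64 and -0.59. The part of these cell types in the 6 genes' values was not tested.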

How the results depend on the processing

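No paired analysis was possible because each E16.5 column is a pool of both libraries and each E18.5 column is 1 library; for the same reason no replicate could be left out. Among members at E16.5, Il1a, Il1f8, Il1f9 and Il18 were called lower and Il33 higher under each of the 5 alternatives. The authors' calls, without subtraction of the median, gave 2 members higher in place of 1, 3 receptors higher in place of 0, 14 signalling genes higher in place of 5 and 0 lower in place of 3, and 5 processing genes higher in place of 1 and 0 lower in place of 3. Centring on transcripts of at least 5 FPKM gave 2 receptors lower in place of 1. A threshold of 0.01 gave 3 signalling genes higher, 1 signalling gene lower and 0 target genes higher. Centring within 10 bins of GC content (94.9% of tested transcripts and 9 members had a value) gave 3 signalling genes higher, and leaving out transcripts under 1 FPKM gave 1 target gene higher; both were chosen after seeing the data. At 1.5-fold, 1 member was higher (Il1f5) and 1 lower (Il1f8) in epidermis, in place of 0 and 0. Without subtraction of the median, Il1rn in epidermis changed sign, from 0.11 to -0.07, and so did the median over members there, which is its value. Il1rn at E16.5, without a call, was higher by the authors' calls and lower with transcripts under 1 FPKM left out. By size, 61 recomputed counts and medians stayed near their values and 14 moved, as did 47 and 7 recomputed member differences. The 7 were all at E16.5. Il1a moved with a pseudocount of 0.1, and Il1rn, Il1f6, Il1f8, Il1f9, Il18 and Il33 moved without subtraction of the median. That median is the same 0.43 for every gene on the log2(FPKM + 1) scale. Il1a shifted by it too, from -1.84 to -1.41, but was counted as near its value. So was the median over members, from -1.47 to -1.04. The counts of moved results therefore do not rest on 1 common limit of size. The cause of the other changes was not tested.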
